A study of Mus musculus with 15 samples.

Results

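mmu-miR-218-5p, mmu-miR-7a-5p and mmu-miR-7b-5p (below without the prefix for mouse) are 3 microRNAs (miRNAs) that have been linked to midbrain dopaminergic neurons or motor neurons. They were picked by name from the 1122 mouse miRNAs on the array, by a rule that uses no signal values but was written with earlier results of these data known. They were followed across all 5 groups of a dopaminergic differentiation of mouse epiblast stem cells (EpiSC), the pluripotent cells of the early post-implantation embryo. The cells came from Pitx3-GFP mice, whose reporter marks the dopaminergic neuron gene Pitx3, and every group shares that background. One group was taken at day 5, before any morphogen. From day 5 the treated cells received SHH and FGF8, which pattern the ventral midbrain, and were taken at day 9 and day 14. Control cells were grown without these morphogens for the same times. Each of the 5 groups had 3 arrays, 15 in all. Nothing in the labels says that the 3 came from separate cultures, so the p-values measure the spread between these samples, which may be technical. Whole cultures were measured, so fewer cells of a type and less of a miRNA per cell cannot be told apart. The labels give no sorting by the reporter.

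A miRNA is cut from a hairpin precursor and guides Argonaute proteins to messenger RNAs, mainly through its seed, bases 2 to 8 from the 5′ end. miR-218 is abundant in motor neurons and is expressed in midbrain dopaminergic neurons. Its hairpins lie inside Slit2 and Slit3, which encode axon guidance ligands. miR-7 is enriched in neurons and endocrine cells. The mature sequences, from RefSeq on GRCm38.p6 with the seed in capitals, show that the 3 miRNAs fall into 2 seed groups, and that miR-7a and miR-7b differ very little:
miR-218-5p: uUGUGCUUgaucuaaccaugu
miR-7a-5p: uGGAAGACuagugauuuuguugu
miR-7b-5p: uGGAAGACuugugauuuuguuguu

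Among 1679 mature mouse miRNA names, the seed GGAAGAC was held by miR-7a-5p and miR-7b-5p alone, and UGUGCUU by miR-218-5p and miR-7002-3p. Over the 23 bases that both share, miR-7a-5p and miR-7b-5p differ at 1 position, A10U, counted from 1 at the 5′ end with the miR-7a-5p base first, and miR-7b-5p is 1 base longer. Probes for such close relatives can take up each other's RNA, and this was not tested. Each miR-7a-5p and miR-218-5p molecule can come from either of 2 loci. Mature miR-218-5p lies at chr5:48223966-48223986 (plus strand, Mir218-1, within Slit2) and chr11:35616840-35616860 (plus strand, Mir218-2, within Slit3). Mature miR-7a-5p lies at chr13:58392841-58392863 (minus strand, Mir7-1, within Hnrnpk, an RNA-binding protein gene) and chr7:78888295-78888317 (plus strand, Mir7-2), and miR-7b-5p at chr17:56243017-56243040 (plus strand, Mir7b). The array cannot say which locus a 5p signal came from. The 2 hairpins of miR-218, with the shared arm in capitals, show why:
Mir218-1: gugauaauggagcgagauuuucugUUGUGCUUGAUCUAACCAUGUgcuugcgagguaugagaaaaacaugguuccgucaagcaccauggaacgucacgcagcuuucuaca
Mir218-2: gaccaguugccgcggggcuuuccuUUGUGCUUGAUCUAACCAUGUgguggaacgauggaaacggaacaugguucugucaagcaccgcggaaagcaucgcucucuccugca

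The opposite arms do differ between loci and have their own probes. Those of miR-7a, again with the seed in capitals, differ at 3 positions (G7A, C10A and C21U, with the miR-7a-2-3p base first):
miR-7a-2-3p: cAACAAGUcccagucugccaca
miR-7a-1-3p: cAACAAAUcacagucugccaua

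Levels are given as scaled log2 signal, the log2 of a probe's background-subtracted intensity divided by its array's 75th percentile over 354 bright probes, so 0 is the level of that percentile. That percentile ran from 149 to 336 intensity units, and 238 to 329 mouse miRNAs per array were above background. The brightest of 2 probes stood for each of the 3 miRNAs, each probe being printed in 20 spots. A floor of -4.30 was set below which signals were not ordered. The arrays lay on 2 slides. Slide 1 held all of day 5, all of treated day 9 and the first pair of treated day 14 replicates (1 and 2). Treated day 14 replicate 3 shared slide 2 with all 6 control arrays. Treated and control cells at day 9 were therefore never on the same slide, and neither were control day 9 and day 5 cells, so slide and group cannot be told apart there. The pluripotency markers (10 of 10 above background on at least 1 array, all miR-302 and miR-290 cluster members) summed to 2.32 to 3.47 at day 5 and to at most 0.673 on every later array, in units of the percentile. All 7 neuronal marker miRNAs were above background on at least 1 array, and their sum ran from 3.93 to 4.22 at day 5, 7.69 to 8.01 in treated and 13.7 to 15.3 in control cells at day 9, and 15.4 to 17.8 in treated and 24.5 to 29.0 in control cells at day 14. Muscle and blood or endothelial markers (0 of 3 and 0 of 5 above background) were at 0. None of the marker lists used here defines dopaminergic neurons, so the labelled fate was not checked beyond these sums.

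**Figure D1:**
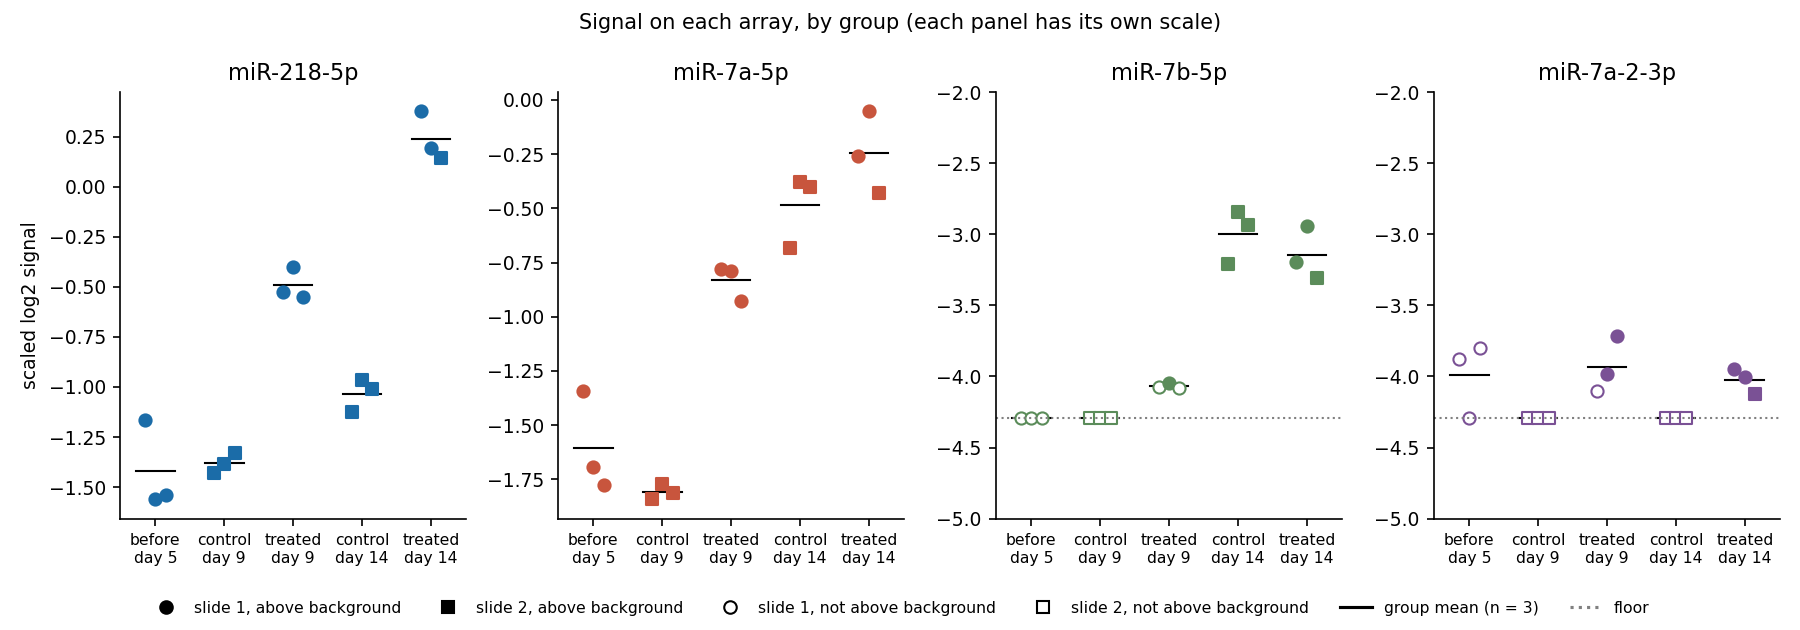
Scaled log2 signal (y axis, a scale of its own in each panel) of miR-218-5p, miR-7a-5p, miR-7b-5p and miR-7a-2-3p on each array (points) in the 5 groups (x axis), with the group mean as a bar (n = 3), the slide as the symbol and open symbols for arrays not above background. miR-218-5p was highest on the 3 treated day 14 arrays (0.15 to 0.38), miR-7a-5p was high in both day 14 groups, and miR-7b-5p was above background on 0 day 5 and 0 control day 9 arrays.

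miR-218-5p was higher in treated than in control cells on both days, and it was the only 1 of the 3 that was called at day 14. It was above background on all 15 arrays. At day 5 its scaled log2 signals were -1.16, -1.56 and -1.54. In control cells they were -1.43, -1.39 and -1.33 at day 9 and -1.13, -0.97 and -1.01 at day 14. The control signals thus stayed near the day 5 range at day 9 and lay a little above it at day 14. In treated cells they were -0.52, -0.40 and -0.55 at day 9 and 0.38, 0.19 and 0.15 at day 14. Every treated array lay above every control and day 5 array. The order of the group means was treated day 14 (0.24 ± 0.12, SD, n = 3), treated day 9 (-0.49 ± 0.08), control day 14 (-1.03 ± 0.08), control day 9 (-1.38 ± 0.05) and day 5 (-1.42 ± 0.22). In that order control day 9 and day 5 overlapped and did not differ beyond their spread.

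Treated exceeded control miR-218-5p by 0.89 on the log2 scale at day 9 (SE 0.10, 1.85-fold, limma adjusted p = 6.9e-06) and by 1.27 at day 14 (SE 0.10, 2.42-fold, adjusted p = 2.4e-07). The difference ranked 37th of the 306 tested miRNAs from the top at day 9 and 9th at day 14. Differences between these groups were common: 40.8% of the tested miRNAs were called higher in treated cells at day 9 and 39.2% at day 14, and the median of all was 0.25 and 0.22. All treated arrays lay above all control arrays for 51.3% of tested miRNAs at day 9 and 41.2% at day 14, and above all day 5 arrays for 39.9% at day 9. Scaling to all mouse probes moved the day 9 median of all miRNAs to -0.25 and the miR-218-5p difference to 0.31 (adjusted p = 0.019), and its excess over that median was 0.56 against 0.64 before. On slide 2 alone, treated day 14 replicate 3 exceeded the mean of the 3 control day 14 arrays by 1.18. The increase of the difference from day 9 to day 14 was 0.38 (SE 0.15, 95% interval 0.07 to 0.70, adjusted p = 0.058) and was not called, where 17.0% of tested miRNAs were called in that direction. It was called without day 5 replicate 1, 2 or 3 (adjusted p from 0.017 to 0.049), which do not enter the difference but do enter the estimate of the spread. It was also called with scaling to all mouse probes (0.59, adjusted p = 0.0099) and with quantile normalization (0.58, adjusted p = 0.013).

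Both steps of the treated course raised miR-218-5p, and both can be read within slide 1. From day 5 to treated day 9 it rose by 0.93 (SE 0.10, 1.90-fold, adjusted p = 2.7e-06), where 37.9% of tested miRNAs were called higher, and by 0.57 with normexp background correction (adjusted p = 0.00046). From treated day 9 to day 14 it rose by 0.73 (SE 0.10, 1.66-fold, adjusted p = 2.4e-05), where 35.6% were called higher. With replicates 1 and 2 of slide 1 alone that rise was 0.78, and treated day 14 replicate 3, on slide 2, lay 0.14 under their mean (-0.14). In control cells the signal differed from day 5 by 0.04 at day 9 (95% interval -0.18 to 0.26, adjusted p = 0.80), but by 0.40 with scaling to all mouse probes, which was called (adjusted p = 0.0039). From control day 9 it rose by 0.35 to control day 14 (SE 0.10, 1.27-fold, adjusted p = 0.011), where 31.4% were called higher. This last rise lay within slide 2, and its call was lost with scaling to all mouse probes (0.19, adjusted p = 0.15), quantile normalization (0.09, adjusted p = 0.58), normexp (0.21, adjusted p = 0.17) and no filter (adjusted p = 0.058).

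miR-7a-5p was also higher in treated cells at day 9, but by day 14 the control cells had risen to overlapping signals. All 15 arrays were above background. Day 5 cells gave scaled log2 signals of -1.34, -1.69 and -1.77. Control cells gave -1.84, -1.77 and -1.81 at day 9 and -0.68, -0.38 and -0.40 at day 14. The control arrays thus stood at or under the day 5 range at day 9 and well above it at day 14. Treated cells gave -0.78, -0.79 and -0.93 at day 9 and -0.26, -0.05 and -0.43 at day 14. The treated arrays lay above all control arrays at day 9, as they did for 51.3% of tested miRNAs. At day 14 treated replicate 3 lay under control replicates 2 and 3. The group means ran in the order treated day 14 (-0.25 ± 0.19, SD, n = 3), control day 14 (-0.49 ± 0.17), treated day 9 (-0.83 ± 0.08), day 5 (-1.60 ± 0.23) and control day 9 (-1.81 ± 0.04). The first pair and the last pair in this order overlapped and did not differ beyond their spread.

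At day 9 treated exceeded control miR-7a-5p by 0.98 (SE 0.12, 1.97-fold, adjusted p = 1.3e-05, rank 26 of 306 from the top), where 40.8% of tested miRNAs were called higher. Its excess over the median of all miRNAs was 0.73. Scaling to all mouse probes gave a difference of 0.40 (excess 0.64), quantile normalization 0.57 (excess 0.57) and normexp 0.61 (excess 0.50), and it was called with each (adjusted p from 0.00090 to 0.0079). With slide as a block it was 0.70 (adjusted p = 0.027). That slide term rests on treated day 14 replicate 3 alone, so slide and group still cannot be told apart at day 9. At day 14 the difference was 0.24 (SE 0.12, 95% interval -0.03 to 0.51, adjusted p = 0.12), which equalled the median of all miRNAs to within 0.02. It was called without treated day 14 replicate 3 (0.33, adjusted p = 0.049), was -0.14 with scaling to all mouse probes (adjusted p = 0.39), and was 0.06 on slide 2 alone, where that replicate is the lone treated array. The fall of the difference between the days, -0.74 (SE 0.17, adjusted p = 0.0057), was itself called, where 16.0% of tested miRNAs were called in that direction. The call was lost with quantile normalization (-0.40, adjusted p = 0.13) and with normexp (-0.43, adjusted p = 0.14).

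The largest step of miR-7a-5p was the late one in control cells. From control day 9 to day 14, within slide 2, miR-7a-5p rose by 1.32 (SE 0.12, 2.50-fold, adjusted p = 5.2e-07, rank 16 of 306), and by 0.86 with normexp (adjusted p = 2.7e-05). In treated cells the same step was 0.59 (SE 0.12, 1.50-fold, adjusted p = 0.00079), and 0.68 within slide 1. The treated cells had already risen by 0.77 from day 5 to day 9 (SE 0.12, 1.71-fold, adjusted p = 8.4e-05), within slide 1 (0.42 with normexp, adjusted p = 0.011), where 37.9% of tested miRNAs were called higher. Control cells differed from day 5 by -0.20 at day 9 (95% interval -0.47 to 0.06, adjusted p = 0.18). With slide as a block that value was 0.07 and with scaling to all mouse probes 0.15, so its sign was not settled. In that comparison, which lies across slides, limma called 59.2% of tested miRNAs. Neither miR-218-5p nor miR-7a-5p was called, or had an unadjusted p under 0.05. miR-7b-5p stood at the floor in both groups, so it could not be called. With scaling to all mouse probes miR-218-5p was called (0.40, adjusted p = 0.0039). The neuronal marker sum, given above, rose over both steps from day 9 to day 14, with 6 of 7 members called higher in treated cells, where 35.6% of tested miRNAs were, and 7 of 7 in control cells, where 31.4% were. Of these, miR-129-5p and miR-138-5p passed the filter only through the day 14 groups, so the filter favoured their rise. The part of the neuronal marker sum in the miR-7a-5p rise was not tested.

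**Figure D2:**
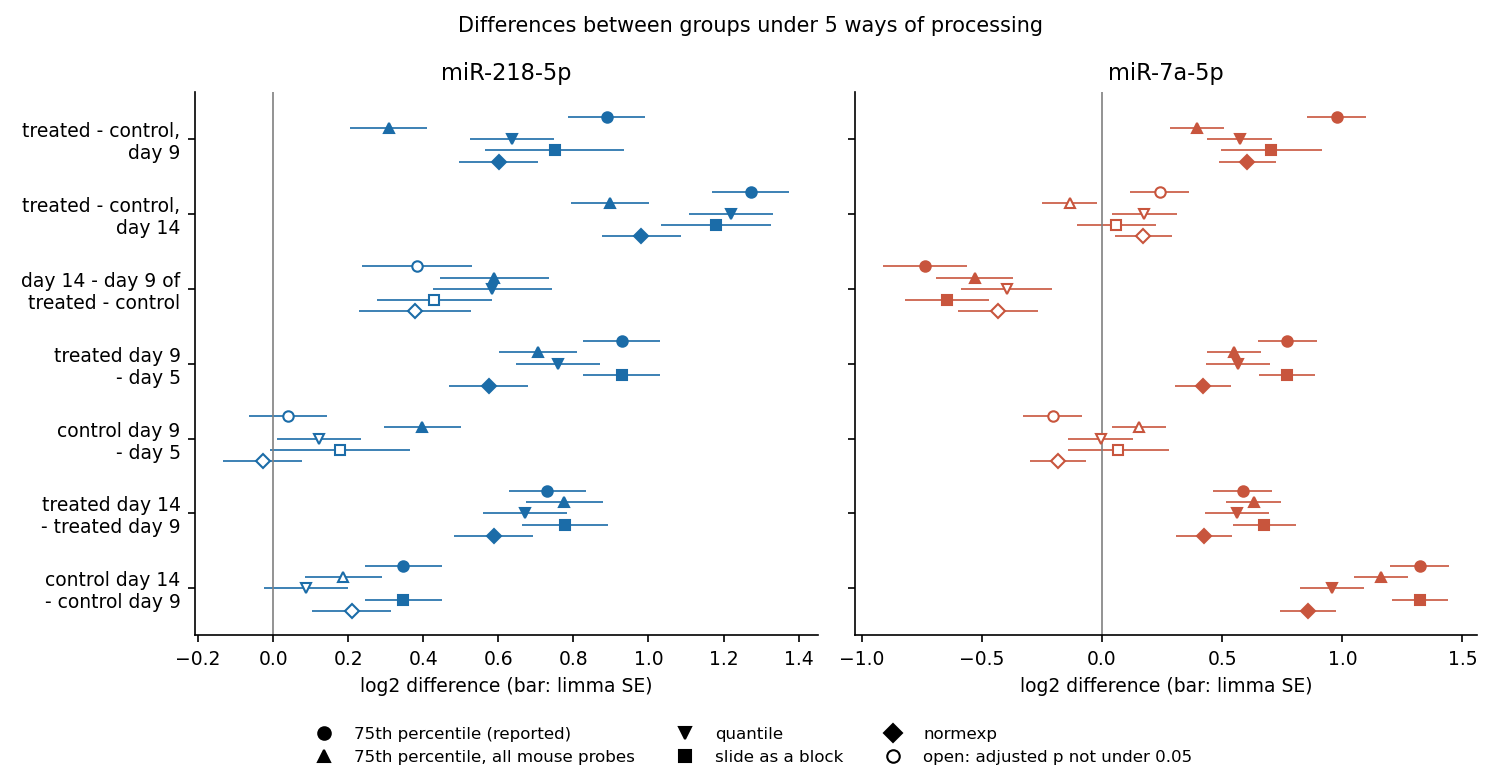
Log2 differences (x axis, bars are limma standard errors) of miR-218-5p and miR-7a-5p in 7 comparisons (y axis) under 5 ways of processing (symbols), filled where the adjusted p was under 0.05. Treated minus control at day 14 was 0.90 to 1.27 for miR-218-5p under these settings, and -0.14 to 0.24, with open symbols throughout, for miR-7a-5p.

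miR-7b-5p was detected late and in both arms. It was above background on 0 of 3 day 5, 0 of 3 control day 9, 1 of 3 treated day 9 and all 6 day 14 arrays. On the 3 day 5 and 3 control day 9 arrays it stood at the floor (-4.30). The treated day 9 arrays gave -4.07, -4.04 and -4.08, just above the floor. At day 14 treated cells gave -3.20, -2.94 and -3.31, and control cells gave -3.21, -2.85 and -2.93. These 2 groups overlapped, with means of -3.15 ± 0.19 and -3.00 ± 0.19 (SD, n = 3).

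The control rise in miR-7b-5p from day 9 to day 14 was at least 2.30-fold (adjusted p = 6.6e-08), a bound set by each control day 9 array's own lowest signal above background, or by the floor where that was higher. The treated rise was called too (0.92, SE 0.10, adjusted p = 1.8e-06), but with 1 of 3 treated day 9 arrays above background its size is not settled. Normexp ended both calls (0.37, adjusted p = 0.12, in control and 0.10, adjusted p = 0.66, in treated cells). miR-7b-5p passed the filter only through the day 14 groups, so the filter favoured a rise to day 14. Its day 5 and control day 9 arrays, all at the floor, add no spread to the fit. The adjusted p-values of miR-7b-5p therefore tend to be too small. Treated minus control at day 14 was -0.15 (SE 0.10, 95% interval -0.36 to 0.06, adjusted p = 0.23). It was called without treated replicate 2 or control replicate 1 (both -0.26, adjusted p = 0.038 and 0.029), and with scaling to all mouse probes (-0.53, adjusted p = 0.00064) or quantile normalization (-0.56, adjusted p = 3.8e-05). At day 9 treated minus control miR-7b-5p was 0.23 and was not called (adjusted p = 0.064). It was called without treated day 14 replicate 2 or 3 or control day 14 replicate 1 (adjusted p from 0.028 to 0.049). With slide as a block it was -0.011. No fold is given, since 1 of 3 treated day 9 arrays was above background. Against day 5 no fold is given for day 9 cells of either arm, since the signals lay at or near background.

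Side by side, 2 of the 3 miRNAs were called higher in treated cells at day 9 and 1 of 3 at day 14, where 40.8% and 39.2% of all tested miRNAs were. From day 9 to day 14 all 3 were called higher in both arms, where 35.6% and 31.4% of tested miRNAs were. The control call of miR-218-5p was lost with both other scalings, normexp and no filter, and both miR-7b-5p calls with normexp. miR-7b-5p also passed the filter only through its day 14 signals. The 2 probes of each miRNA gave like differences where both measured it. For miR-218-5p they gave 0.97 and 0.89 at day 9 and 1.30 and 1.27 at day 14 for treated minus control. For miR-7a-5p they gave 0.93 and 0.98 at day 9, 0.30 and 0.24 at day 14, and 1.32 with both for the control rise. For miR-7b-5p the dimmer probe was above background in the day 14 groups only, and there it gave -0.20 against -0.15.

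The opposite arms were at or under the limit of the array. miR-218-1-3p, miR-218-2-3p, miR-7a-1-3p and miR-7b-3p were above background on 0 of 15 arrays, so nothing in these signals assigns miR-218-5p to Slit2 or Slit3. miR-7a-2-3p, made from the Mir7-2 hairpin alone, was above background on 2 of 3 treated day 9 and 3 of 3 treated day 14 arrays, and on 0 day 5 and 0 control arrays. Its scaled log2 signals were -4.11, -3.98 and -3.72 in treated day 9 cells and -3.95, -4.01 and -4.13 in treated day 14 cells, and all 6 control arrays were at the floor. Day 5 arrays gave -3.88, -4.30 and -3.80, as high as treated cells, though none was flagged above background. Treated minus control miR-7a-2-3p was 0.36 at day 9 (adjusted p = 0.021) and 0.27 at day 14 (adjusted p = 0.078, not called). Under the alternatives these values ran down to 0.11 and -0.0047, so no fold is given. miR-7a-2-3p passed the filter only through the treated day 14 arrays, so the filter favoured higher treated signals. The day 9 call was lost with slide as a block (adjusted p = 0.57), with both other scalings, with normexp, with no filter, and without treated replicate 3 (adjusted p = 0.11) or control day 9 replicate 3 (adjusted p = 0.050). No control array had a detected miR-7a-2-3p signal, and miR-7a-1-3p, made from Mir7-1, was detected on no array at all. Nothing in these signals therefore assigns the miR-7a-5p rise to a locus.

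Of 11 other miRNAs linked to midbrain dopaminergic neurons, 9 were tested. At day 9, 5 were called higher in treated cells and 4 lower (median 1.25, against 0.25 over all miRNAs), and at day 14, 4 higher and 5 lower (median -0.38, against 0.22). Over all tested miRNAs 40.8% were called higher and 15.4% lower at day 9, and 39.2% higher and 14.1% lower at day 14. The list's medians moved with the processing. At day 9 the median was 0.51 over the 8 members above background on all 15 arrays, 0.64 with a floor raised 4-fold, 0.67 with scaling to all mouse probes and 0.75 with slide as a block. At day 14 it was 0.14 over those 8 members and -0.76 with scaling to all mouse probes, so its sign was not settled. With no filter, which takes in the 2 members at the floor, it was 0 on both days. With slide as a block the list had 5 higher and 2 lower at day 9 (miR-125b-5p and miR-128-3p lost their calls), and 2 higher and 4 lower at day 14 (miR-135a-5p, miR-212-3p and miR-125b-5p lost theirs). miR-34b-5p and miR-34c-5p, a pair made from 1 transcript, exceeded control by 1.87 and 1.89 at day 9 and by 1.90 and 1.89 at day 14 (SE 0.11 to 0.12), so like miR-218-5p they were higher on both days. miR-135a-5p, linked to midbrain patterning, was higher by 1.25 and 0.67 (SE 0.15), and miR-212-3p by 2.41 and 1.23 (SE 0.26). miR-132-3p, which neuronal activity induces, was higher by 2.26 at day 9 and lower at day 14 (-0.79, SE 0.12). The lower members on both days were miR-124-3p (-0.99 and -1.04), miR-125b-5p (-0.31 and -0.38), miR-128-3p (-0.23 and -0.82) and miR-181a-5p (-0.56 and -0.42). The miR-125b-5p call was also lost with quantile normalization on both days (adjusted p = 0.26 and 0.087) and at day 9 with the mean of all probes (adjusted p = 0.21) and no filter (adjusted p = 0.12). The day 9 call of miR-128-3p was also lost with a raised floor, normexp and no filter (adjusted p from 0.11 to 1). At day 14 the calls of miR-132-3p with normexp (adjusted p = 0.068), miR-135a-5p with scaling to all mouse probes (adjusted p = 0.15) and miR-212-3p with a raised floor (adjusted p = 0.23) were lost. miR-133b-3p, once linked to midbrain dopaminergic neurons, and miR-126-3p were above background on 0 arrays.

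**Figure D3:**
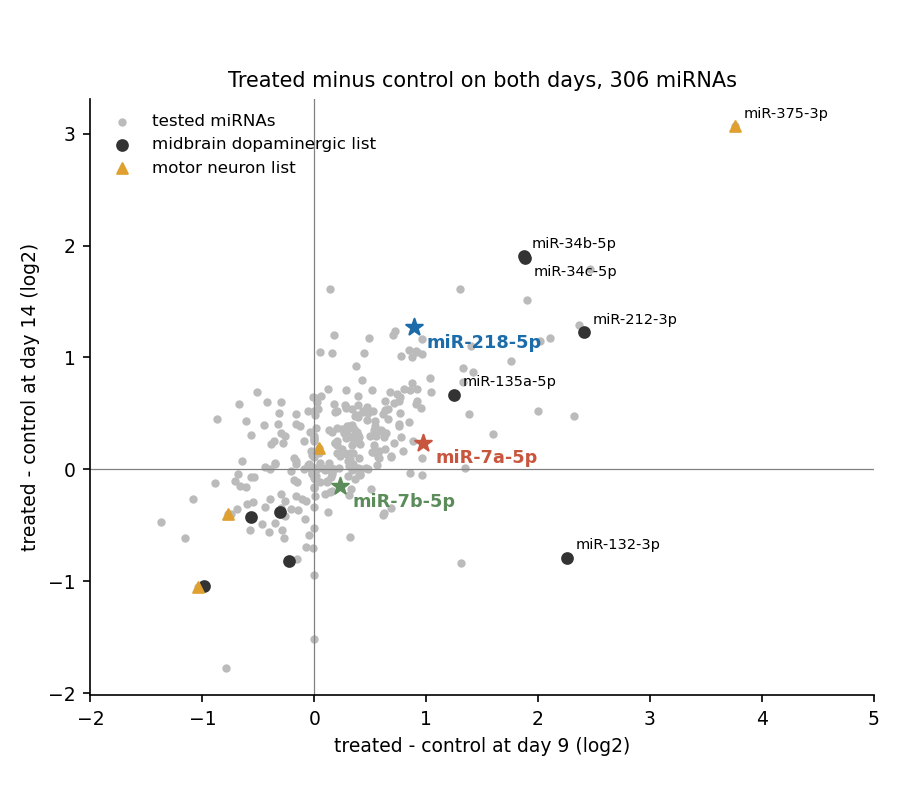
Treated minus control difference at day 14 (y axis, log2) against that at day 9 (x axis, log2) for the 306 tested miRNAs (grey), with 3 stars for miR-218-5p (0.89, 1.27), miR-7a-5p (0.98, 0.24) and miR-7b-5p (0.23, -0.15) and symbols for the dopaminergic and motor neuron lists. Signals under the floor were raised to it, which can understate a difference, and miR-132-3p lies higher at day 9 and lower at day 14.

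Of 5 other miRNAs linked to motor neurons, 4 were tested: 1 was higher and 2 lower at day 9 (40.8% and 15.4% over all tested miRNAs), and 2 higher and 2 lower at day 14 (39.2% and 14.1%). miR-375-3p, also an endocrine and endoderm miRNA, was at least 12.7-fold and 8.04-fold higher in treated cells, since 0 control arrays were above background. It passed the filter only through the treated groups, so the filter favoured higher treated signals. miR-17-3p differed by 0.04 and 0.19 (adjusted p = 0.69 and 0.040), with no settled direction, since scaling to all mouse probes gave -0.54 and -0.19 and quantile normalization -0.23 and -0.12. Its day 14 call was lost with these, a raised floor, no filter, slide as a block, the replicate block (adjusted p = 0.059) and normexp. miR-9-5p (-0.77 and -0.40) and miR-9-3p (-1.04 and -1.05), both arms of a neural miRNA, were lower, the day 14 call of miR-9-5p being lost with quantile normalization (adjusted p = 0.068). Like miR-124-3p and miR-128-3p, they are also among the 7 neuronal markers. miR-206-3p was above background on 0 arrays.

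Over time, more members of these lists rose than fell in most steps. From day 5 to treated day 9, 8 of 9 in the dopaminergic list were called higher and 0 lower, as were 3 and 1 of 4 in the motor neuron list, where 37.9% and 21.2% of all tested miRNAs were. From day 5 to control day 9 the counts were 5 higher and 3 lower, and 2 and 1 (23.9% and 35.3% over all). From treated day 9 to day 14 they were 5 and 4, and 2 and 2 (35.6% and 31.4%), and from control day 9 to day 14 they were 6 and 2, and 2 and 1 (31.4% and 23.5%). Within the dopaminergic list, miR-34b-5p and miR-34c-5p were lower in 3 of these steps. The change of the treatment difference between days was called, as lower, for miR-132-3p (-3.05), miR-212-3p (-1.19) and miR-128-3p (-0.60), as for miR-7a-5p, and for miR-375-3p, whose control was below background on both days. Over all tested miRNAs 16.0% were called lower and 17.0% higher. The dopaminergic list had 2 lower with both other scalings, normexp and no filter, and 5 lower with a raised floor. With quantile normalization it also had 1 higher. With normexp the motor neuron list had 0 called.

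Markers of other cells differed between the same groups as miR-218-5p and miR-7a-5p, in both directions. The neuronal marker sum was lower in treated than in control cells on both days (0 of 7 called higher on either day, where 40.8% and 39.2% of tested miRNAs were, and 5 lower at day 9 and 7 lower at day 14, where 15.4% and 14.1% were), opposite to miR-218-5p. At day 9 miR-129-5p and miR-138-5p were below background in both arms, so they could not be called. The glial sum (2 of 2 above background) was 4.73 to 5.02 in treated and 1.76 to 2.12 in control cells at day 9, and 2.28 to 2.94 and 1.57 to 1.63 at day 14. It was mostly miR-219-5p, which was higher in treated cells on both days (1.33 and 0.78), while miR-338-3p was higher at day 9 (0.62) and lower at day 14 (-0.41, adjusted p = 0.0028). The mesenchymal sum (3 of 6 above background, mostly miR-21-5p, with miR-143-3p, miR-145-5p and miR-214-3p at 0) was 1.51 to 1.77 and 0.693 to 0.758 at day 9, and 0.978 to 1.11 and 0.554 to 0.612 at day 14. The endoderm sum (2 of 6 above background on at least 1 array, in treated cells miR-375-3p alone) was 0.650 to 0.717 and 0.0654 to 0.0696 at day 9, and 0.385 to 0.458 and 0 at day 14. In control day 9 cells it was miR-216a-5p alone, which was lower in treated cells at day 9 (-0.39, limma adjusted p = 0.00092). miR-216a-5p was above background on 3 control and 0 treated day 9 arrays. The part of these cells in the miR-218-5p and miR-7a-5p differences was not tested.

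The miRNAs with the most similar course were found by the root mean square difference of the 5 group means after centring, over 306 tested miRNAs and with no test. For miR-218-5p they were miR-193-3p (0.18, above background on treated arrays and 1 day 5 array only), miR-27b-3p (0.24) and miR-135a-2-3p (0.27, not among the nearest 10 with quantile normalization). For miR-7a-5p they were miR-22-3p (0.15), miR-135a-5p (0.20) and miR-432 (0.23). For miR-7b-5p, which was at the floor in 2 of the 5 groups, they were miR-5112 (0.12), miR-432 (0.14) and miR-3102-5p.2-5p (0.15). miR-7a-5p ranked 10th for miR-218-5p (0.38). No rank is read for miR-7b-5p beside miR-7a-5p, since most of its course lay at or near the floor.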

How the data were processed

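Small RNA was labelled in one colour and hybridised to 15 Agilent mouse miRNA arrays. The deposited scanner tables give each spot's intensity, per the file headers written by Feature Extraction 11.0.1.1, and are not normalized across arrays. Their flags for spots above background and outlier spots are of another kind (other), per the file headers. Per the submitters' processing notes limma 3.20.9 was used, in a role not given in the sources used here.

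Background-subtracted signals were averaged per probe, leaving out spots marked as outliers. They were scaled to the 75th percentile of the 354 mouse probes that were above background (at least 50% of spots flagged) on every array, raised to a floor of -4.30 (the lowest scaled signal above background, as its median over arrays) and put on the log2 scale. The brightest probe stood for a miRNA. Testing took in 306 of 1122 mouse miRNAs, those above background on every array of 1 group or more, and left out 816. One limma 3.58.1 fit covered the 5 groups (R 4.3.3, data.table of version 1.17.8, jsonlite 2.0.0; figures with Python and matplotlib) with 10 residual and 3.09 prior degrees of freedom. The 7 comparisons used two-sided moderated tests, Benjamini-Hochberg adjustment over the 306 miRNAs and a threshold of 0.05, and the fit was tested on simulated data. The number of arrays limits the precision.

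The deposited table of values is also linear intensity: 73.3% to 83.8% of probes in 14 columns equal the plain mean of the scanner table's spots within 0.1%. The median of each column, in replicate order, was 0.100, 0.219 and 0.0453 for day 5 cells. Treated cells had 0.440, 0.542 and 0.381 (day 9) and 0.700, 0.700 and 0.257 (day 14), and control cells -0.0215, 0.103 and 0.217 (day 9) and 0.235, 0.267 and 0.436 (day 14). Its column for treated day 14 replicate 2 repeats that of replicate 1 (86.0% equal within 0.1%), so these counted as 1 replicate in that alternative.

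The miRNAs named were the 3 members, the opposite arms, the called members of 2 lists (another list is not reported here), and the 3 nearest in course. They and the lists were chosen with earlier results of these data known. All 8 sequences looked up matched RefSeq by name.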

Additional observations from a re-analysis of the deposited data

Results flagged for a closer look

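The treated minus control difference of miR-7a-5p differed between the days by a test of the difference itself: treated minus control at day 14 less that at day 9 was -0.74 on the log2 scale (limma adjusted p = 0.0057). The call held in 9 of 11 alternatives and was lost with quantile normalization and with normexp. At day 9 treated and control arrays were never on the same slide. Treated minus control was 0.98 at day 9 and 0.24 at day 14.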

How the results depend on the processing

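Over 11 alternatives other than leaving out an array, treated minus control kept its direction and its call for miR-218-5p at day 9 (0.31 to 0.97) and day 14 (0.90 to 1.33) and for miR-7a-5p at day 9 (0.40 to 0.98), as did the treated steps of both and the control rise of miR-7a-5p (0.86 to 1.32). Of these alternatives, the slide block rests on treated day 14 replicate 3 alone, so slide and group still cannot be told apart at day 9. With scaling to all mouse probes, miR-7b-5p at day 9 (-0.0083), miR-7a-5p at day 14 (-0.14) and miR-7a-5p in control day 9 cells against day 5 (0.15) changed sign, none of them called. That scaling gave calls for miR-7b-5p at day 14 (-0.53), the miR-218-5p change between days (0.59) and miR-218-5p in control day 9 cells against day 5 (0.40), and ended that of the miR-218-5p control rise (0.19). Quantile normalization gave calls for miR-7b-5p at day 14 (-0.56) and the miR-218-5p change between days (0.58), and ended those of the miR-7a-5p change between days (-0.40) and the miR-218-5p control rise (0.088). Without a filter the miR-218-5p control rise (0.35) lost its call. Blocking on slide, miR-7b-5p at day 9 (-0.011) and miR-7a-5p in control day 9 cells against day 5 (0.067) changed sign, and 75 and 99 miRNAs in all were called in these comparisons. Normexp, run on median signals and chosen after seeing the data since the planned mean signals were not used here, ended the calls of the miR-7a-5p change between days (-0.43), the miR-7b-5p rises in treated (0.10) and control cells (0.37) and the miR-218-5p control rise (0.21), and turned miR-218-5p in control day 9 cells against day 5 (-0.027) and miR-7a-2-3p at day 14 (-0.0047). It called 76, 59 and 21 miRNAs for treated against control at day 9, day 14 and their change, 101 and 100 for treated and control day 9 against day 5, and 128 and 94 for the treated and control steps to day 14. The dimmer probe, also added after seeing the data, gave -0.011 for miR-218-5p and 0.012 for miR-7a-5p in control day 9 cells against day 5. A floor raised 4-fold called 98 and 93 for treated against control at day 9 and day 14, 106 for control day 9 against day 5, and 134 and 96 for the steps to day 14. It put miR-7b-5p and miR-7a-2-3p wholly at the floor, as the dimmer probe did for miR-7b-5p at day 9, so no value exists there. Testing only miRNAs above background on all 15 arrays, 107 were called for treated against control at day 9, 58 for the change between days, 118 for treated day 9 against day 5 and 134 for the treated step, from fewer tested, and miR-7b-5p dropped out. Apart from that filter and the floor, the cause of these changes was not tested.

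Leaving out each array in turn, treated minus control ran from 0.84 to 0.92 at day 9 and from 1.20 to 1.32 at day 14 for miR-218-5p, from 0.95 to 1.02 and from 0.14 to 0.33 for miR-7a-5p, and from 0.22 to 0.24 and from -0.26 to -0.071 for miR-7b-5p. The change between days ran from 0.31 to 0.43 for miR-218-5p and from -0.83 to -0.65 for miR-7a-5p, and control day 9 against day 5 from -0.030 to 0.17 for miR-218-5p.

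Replicate numbers did not pair the samples: 4 of 18 same-number correlations of deviations were over 0.1 (-0.55 to 0.52). With the replicate block no call of the 3 miRNAs changed (miR-218-5p 0.89 at day 9, adjusted p = 3.1e-05), and 171 rather than 172 miRNAs were called there. Few of the signals of miR-7b-5p and miR-7a-2-3p stood clear of background, which limits what can be said of them.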
